A study of Mus musculus with 8 samples.

Results

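The genes described here encode the ubiquitin-proteasome machinery. They cover the subunits of the proteasome and its activators and assembly factors, the activating (E1) and conjugating (E2) enzymes of ubiquitin and its relatives, the cullin scaffolds and F-box receptors of the cullin-RING ligases, and the Usp deubiquitinases. They were chosen by symbol from the protein-coding genes of the deposited table (Psma to Psmg, Ube2, Uba1 to Uba7, Usp, Cul and Fbxw, Fbxl or Fbxo followed by their numbers or letters). The immunoproteasome subunits *Psmb8*, *Psmb9* and *Psmb10* and the ISG15 protease *Usp18* were kept out by the same rule. This gave 144 of the 8278 genes of the table, with 39 proteasome, 5 E1, 26 E2, 42 cullin and F-box (6 and 36) and 32 Usp genes. The name rule also took in *Usp6nl*, a Rab GTPase-activating protein, *Ube2cbp*, a ligase, and *Fbxo18*, which is the helicase Fbh1. Their log2 fold changes were -0.16 ± 0.04, 0.69 ± 0.15 and -0.43 ± 0.04 (± SE, KO minus EV).

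The study used mouse cardiac endothelial cells (MCECs), a purchased cell line, and asked how loss of histone deacetylase 3 (HDAC3) changes gene expression in them. Cells of the genotype labelled CTL had received empty vector (EV) lentivirus, and *Hdac3* knockout (KO) cells had received lentivirus carrying an *Hdac3* sgRNA with Cas9. Both groups were transduced, and stable KO cells were made by transduction of a single line. The 4 EV and 4 KO libraries are therefore samples of 1 line each, and p-values measure only the spread between those libraries, which may be technical. Bulk RNA was sequenced, and each library is a sum over cells, so fewer cells of a kind and less RNA per cell cannot be told apart. *Hdac3*, at chr18:37935844-37954988, - strand, was at 2048 ± 84.5 in EV and 1506 ± 40.6 in *Hdac3* KO MCECs (normalized counts, mean ± SD, n = 4 each; log2 fold change -0.45 ± 0.04 (SE), adjusted p = 1.0e-13). Its mRNA was thus lower but still present in the KO libraries. The paper checked the deletion by western blot of the protein, which RNA counts do not measure.

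The libraries held 15775327 to 22255684 reads by the totals behind the FPKM values, 84.3 to 85.9% of them in the table. The table holds only genes with an adjusted p under 0.05 in the authors' own comparison, and 96.7% of its genes passed the test used here (edgeR's quasi-likelihood test on the counts, Benjamini-Hochberg adjusted p under 0.01 over all 8278 genes). In *Hdac3* KO MCECs 47.1% were called higher and 49.6% lower, and the 4 EV and 4 KO libraries did not overlap for 91.1%. That a member passed the test says little on its own, and the direction, the size and the share within a group carry the description. Of the 230 protein-coding genes that GENCODE M21 lists under the same name rule, 143 are in the table (39 of 47 proteasome, 5 of 6 E1, 26 of 37 E2, 41 of 85 cullin and F-box and 32 of 55 Usp genes). The 144th is listed there under another symbol. Genes such as *Psmf1*, *Psmd10*, *Ube2m*, *Ube2t*, *Cul4a*, *Cul9*, *Usp8* and *Usp22* were not analysed here. Of 15 endothelial markers 6 were in the table, with summed levels of 26.2 to 28.3 FPKM (fragments scaled to gene length and library total) in EV and 20.9 to 22.4 FPKM in KO libraries. *Pecam1*, a defining one, was near 0 in both groups at 0.00802 and 0.0569 FPKM. *Eng* was at 21.5 FPKM in EV MCECs, and *Flt1*, *Egfl7*, *Tek* and *Kdr* were at 2.67, 2.31, 0.779 and 0.391 FPKM. *Col1a1* and *Dcn*, which mark fibroblasts, were at 373 and 351 FPKM in EV MCECs, and *Pdgfra*, the other fibroblast marker in the table, at 2.14 FPKM. The other 9 endothelial markers were not analysed here. Of the other cell types, 3 of 6 fibroblast markers (summed level 717 to 738 FPKM in EV and 534 to 550.3 in KO; *Dcn* and *Pdgfra* were called lower and *Col1a1* higher), 3 of 6 smooth muscle markers (29.5 to 35.6 FPKM in EV and 5.74 to 7.16 in KO), 1 of 6 leukocyte markers (*Cd68*, 5.70 ± 0.245 FPKM in EV and 12.1 ± 0.648 in KO, called higher) and 0 of 8 cardiomyocyte markers were in the table. Their part in the results was not tested.

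Ubiquitin is activated by an E1 enzyme, passed to an E2 and joined to a substrate with the help of an E3 ligase, and chains of it mark proteins for the proteasome. The 26S proteasome is a barrel of alpha and beta rings (the 20S core, with its proteolytic sites in the beta rings) capped by a 19S regulatory particle, whose ATPases unfold the substrate and whose non-ATPase subunits bind and remove ubiquitin. Cullin-RING ligases join a cullin to exchangeable substrate receptors, of which the F-box proteins serve Cul1 and in part Cul7, and the Usp enzymes take ubiquitin off again.

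Proteasome subunits were mostly higher, and F-box genes mostly lower, in *Hdac3* KO than in EV MCECs. Of 39 proteasome genes 35 (89.7%) were called higher and 2 (5.13%) lower, against 47.1% and 49.6% of the table. The counts were 4 higher and 1 lower of 5 E1 genes, 21 higher and 4 lower of 26 E2 genes, 6 higher and none lower of 6 cullins, 12 higher and 23 lower of 36 F-box genes, and 18 higher and 13 lower of 32 Usp genes. Median log2 fold changes (KO minus EV) were 0.35 for the proteasome, 0.32 for E1, 0.25 for E2, 0.26 for cullins, -0.31 for F-box and 0.14 for Usp genes, beside 0.06 over the table. Over all members 96 were called higher, 43 lower and 5 neither (*Psmd9*, *Psmg3*, *Ube2g1*, *Fbxw2* and *Usp19*).

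**Figure D1:**
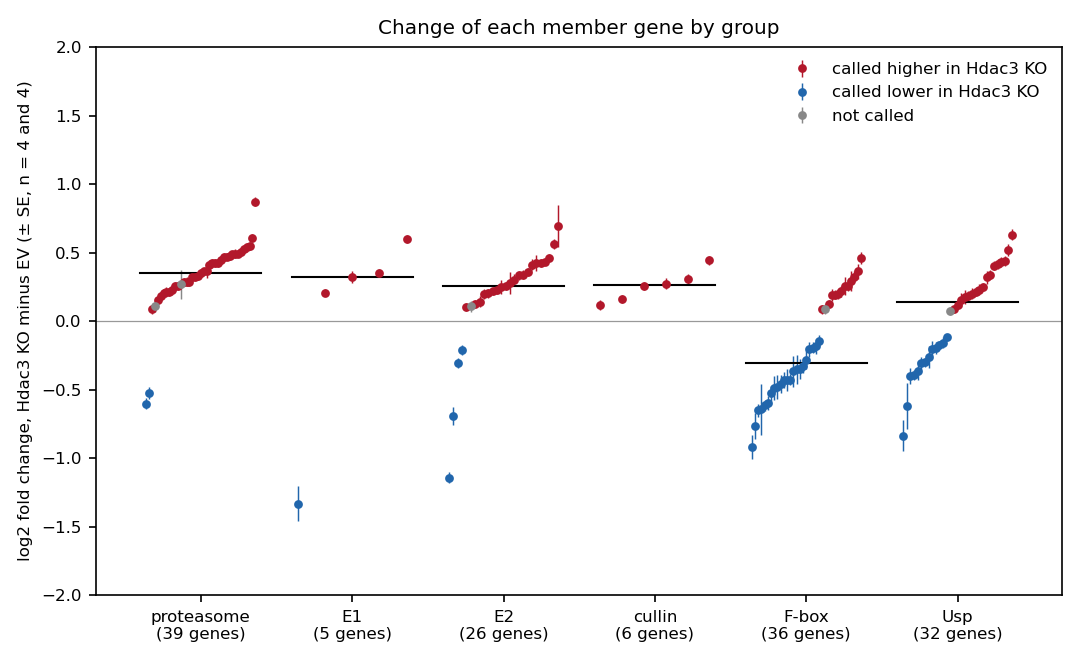
Log2 fold change (KO minus EV, y axis, ± SE, 4 libraries a group) of 142 of the 144 genes in 6 groups (x axis, genes sorted within a group), with a black line at each group's median and colours for the call at an adjusted p under 0.01. Proteasome, E1, E2 and cullin points lie mostly above 0 and F-box points mostly below, *Fbxw18* and *Usp17la* lie outside the axis, and the group medians fall by 0.12 under scaling by library totals alone, without a change of sign.

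A called change of over 0.5 on the log2 scale was seen in 38.5% of the table and in 27 of the 144 members (12 higher and 15 lower), 8 of them proteasome genes (6 higher and 2 lower) and 8 of them F-box genes (all lower). The level of a gene goes with its direction in this table: among genes under 10 FPKM in EV MCECs 37.2% were called higher and 60.5% lower, and among genes at 50 FPKM or more 62.2% were called higher and 34.2% lower. Of 33 proteasome genes at 50 FPKM or more 32 were called higher (97.0%), and of 21 F-box genes under 10 FPKM 16 were called lower (76.2%). Of the 15 F-box genes at 10 to 50 FPKM 7 were called higher and 7 lower (46.7% each), beside 51.2% and 44.5% of the table at that level. The part of level in either group's direction was not tested.

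How the libraries are scaled also matters for small changes. The scaling used here (trimmed mean of M-values, TMM, over the table's genes) and scaling by library totals alone differ by 0.12 on the log2 scale for every gene. Under library totals alone 29 proteasome genes were called higher and 2 lower, 14 E2 genes higher and 4 lower, 8 cullin and F-box genes higher and 23 lower (F-box genes 4 and 23), and 12 Usp genes higher and 13 lower. FPKM values carry the library totals and no TMM factor, so a gene with a small change can be higher in normalized counts and not in FPKM. The counting was not stated to use strand, and without strand the reads of a gene and of an antisense partner cannot be told apart. Overlap of exons was taken for the members only, not for the other genes named. Of the members named here, the share of exonic bases that overlap a gene on the other strand was over 10% for *Fbxw8* (33.4%), *Usp14* (26.0%), *Psmd9* (25.5%), *Ube2c* (22.8%), *Fbxw4* (21.4%), *Ube2e1* (16.1%), *Psmb7* (11.8%), *Usp34* (11.6%) and *Psmd13* (10.1%).

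**Figure D2:**
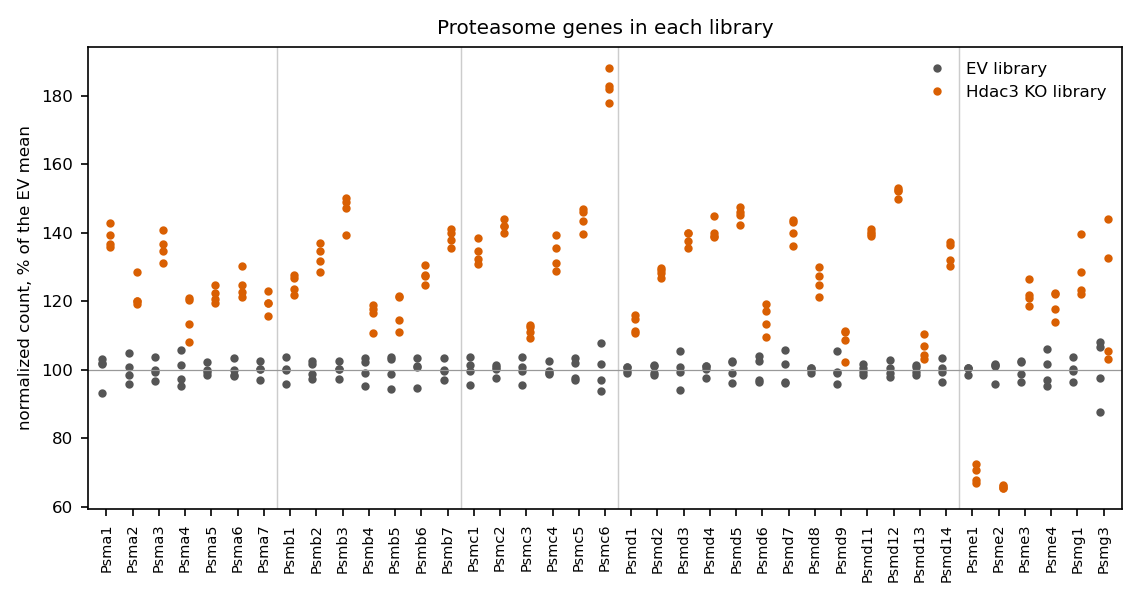
Normalized counts of the 39 proteasome genes in each library (y axis, % of that gene's EV mean) by gene (x axis; alpha, beta, ATPase, non-ATPase, then activator and assembly genes, set apart by vertical lines). The KO libraries lie above the EV libraries for 35 genes and below them for *Psme1* and *Psme2*, and they overlap for *Psmd9* and *Psmg3*; under scaling by library totals alone *Psmd13* and *Psmd9* turn to negative changes.

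In the 20S core all 7 alpha and all 7 beta genes were higher in KO MCECs, with log2 fold changes of 0.21 to 0.47 and 0.21 to 0.55. The 3 catalytic beta subunits are *Psmb5* (chymotrypsin-like), *Psmb6* (caspase-like) and *Psmb7* (trypsin-like). Normalized counts are given in the order of replicates 1 to 4. *Psmb7*, at chr2:38588036-38644087, - strand, gave 4060.1, 3808, 3921 and 3931 in EV against 5545, 5415, 5499 and 5322 in KO (log2 fold change 0.47 ± 0.03 (SE), adjusted p = 2.9e-17). *Psmb6* gave 2729.9, 2565, 2738 and 2803 in EV against 3537, 3379, 3460.2 and 3453 in KO (log2 fold change 0.35 ± 0.03 (SE), adjusted p = 1.1e-12). *Psmb5* gave 1321, 1209, 1264 and 1327 in EV against 1555, 1465, 1553 and 1422 in KO (log2 fold change 0.23 ± 0.04 (SE), adjusted p = 2.9e-06). Every KO library was above every EV library for all 3, and *Psmb5* moved least; its call was lost under library totals alone (log2 fold change 0.11). Pseudogene or neighbouring transcripts share 54.1% of the 50-base stretches of *Psmb5* and 49.1% of those of *Psma5*, so reads of these genes could have been split or dropped in counting. *Psmb3*, a structural beta subunit, was the beta gene with the highest fold change, at 3624 ± 75.1 in EV and 5307 ± 174 in *Hdac3* KO MCECs (log2 fold change 0.55 ± 0.03 (SE), adjusted p = 1.3e-18). Transcripts of other genes share 17.8% of the 50-base stretches of *Psmb3*.

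Levels of the 14 core subunits, compared per length, ran from 61.1 FPKM for *Psma3* to 269 for *Psmb1* in EV. In KO MCECs the same genes stood at the ends, at 76.5 and 309.5 FPKM. The SD of log2 FPKM over the subunits was 0.56 in EV and 0.57 in KO. The summed level of the alpha genes was 744 ± 20.8 FPKM in EV and 853 ± 22.0 in KO libraries, and that of the beta genes was 1147 ± 34.6 and 1362 ± 25.5 FPKM (mean ± SD, n = 4). These sums were 14.7% and 18.7% higher in KO MCECs, and the spread of levels among the subunits stayed of the same size.

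The 19S ATPases (*Psmc1* to *Psmc6*), which form the ring that unfolds substrates, were higher in 6 of 6 genes. Their median change was 0.46 on the log2 scale, and their summed level was 568 ± 11.5 FPKM in EV and 726 ± 10.2 in KO, 28.0% higher. *Psmc6*, at chr14:45329824-45349071, + strand, had the largest fold change of the 39 proteasome genes. It gave 2319, 2019, 2187 and 2089.6 in EV against 3936, 3834, 4052 and 3921 in KO, 1.83-fold higher (log2 fold change 0.87 ± 0.03 (SE), adjusted p = 2.2e-22). The lowest KO library was above the highest EV library by a wide margin. *Psmc5* was at 3485 ± 107 in EV and 5021 ± 116 in *Hdac3* KO MCECs (log2 fold change 0.53 ± 0.03 (SE), adjusted p = 4.3e-18). *Psmc3* was at 3937 ± 133 in EV and 4386 ± 67.0 in *Hdac3* KO MCECs (log2 fold change 0.15 ± 0.03 (SE), adjusted p = 7.1e-06), the smallest change among the ATPases, and lost its call under library totals alone (0.04). The ATPases thus ranged from 0.15 to 0.87 on the log2 scale.

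Of 13 *Psmd* genes 12 were higher and none lower, with a median of 0.42. *Psmd12*, a subunit of the lid, gave 2349.6, 2293, 2232 and 2259 in EV against 3423, 3473, 3482 and 3493 in KO, 1.52-fold higher (log2 fold change 0.60 ± 0.03 (SE), adjusted p = 1.2e-19). *Psmd14*, the lid's deubiquitinase, gave 2418, 2251, 2320.1 and 2350.1 in EV against 3086, 3045, 3185 and 3206 in KO (log2 fold change 0.42 ± 0.03 (SE), adjusted p = 1.1e-14). *Psmd4*, a ubiquitin receptor, was at 2858 ± 47.0 in EV and 4021 ± 80.2 in *Hdac3* KO MCECs (log2 fold change 0.49 ± 0.03 (SE), adjusted p = 1.7e-17). For these 3 genes the KO libraries were all above the EV libraries. *Psmd5*, an assembly chaperone of the base, was at 1608 ± 49.3 in EV and 2336 ± 36.1 in *Hdac3* KO MCECs (log2 fold change 0.54 ± 0.03 (SE), adjusted p = 8.5e-17). The scaffold subunit *Psmd1* moved less, from 4304 ± 39.1 to 4876 ± 108 (0.18 ± 0.03, adjusted p = 2.0e-07), and lost its call under library totals alone (0.06). *Psmd13* was just inside the threshold (log2 fold change 0.09 ± 0.03 (SE), adjusted p = 0.0099) and turned to -0.03 under library totals alone, and its call was lost when any EV library, KO replicate 1 or KO replicate 3 was left out (adjusted p = 0.012 to 0.041). *Psmd9*, another assembly chaperone and the lowest of the 33 core and regulatory genes at 16.4 FPKM, did not pass (log2 fold change 0.11 ± 0.04 (SE), adjusted p = 0.018), and its libraries overlapped.

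Taken over the 20S and 19S genes, all 33 had a fold change above 0, 32 were called higher, and the libraries did not overlap for 32. DESeq2 also called 32 higher and none lower. Under library totals alone 26 were called higher and none lower, with *Psmd13* and *Psmd9* just below 0.

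The promoters of the members were read for the core letters of 4 motifs. RefSeq promoters (GRCm38.p6, 250 bases before to 50 after the start, so 300 bases) were found for 114 of the 144 members (141 promoters). The antioxidant response element core, TGACNNNGC on either strand, is bound by factors that include Nfe2l1 and Nfe2l2, and Nfe2l1 is known to drive proteasome genes. It was in 5 of the 29 promoters of the 20S and 19S genes (17.2%). These belong to 5 of 27 genes (*Psmb5*, *Psmb6*, *Psmc6*, *Psmd12* and *Psmd9*). The share of promoters was 14.9% for all members, 15.4% for genes called higher in the table and 13.2% for genes called lower. Among all 32851 promoters it was 12.4%. Of the 20 members with these letters 12 were called higher and 6 lower, beside 66.7% and 29.9% of all members. The windows of the 4 subunits that were called higher are shown, with the match in capitals, 5′ to 3′ on the strand of the gene (for *Psmc6* and *Psmd12* the letters lie on the other strand, so the capitals read as their reverse complement).
*Psmb5*, chr14:54618009-54618067, - strand: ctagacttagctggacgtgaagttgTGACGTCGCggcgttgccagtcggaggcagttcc
*Psmb6*, chr11:70525323-70525381, + strand: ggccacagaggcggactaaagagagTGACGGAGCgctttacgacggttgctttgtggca
*Psmc6*, chr14:45329574-45329630, + strand: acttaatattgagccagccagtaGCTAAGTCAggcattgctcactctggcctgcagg
*Psmd12*, chr11:107479278-107479314, + strand: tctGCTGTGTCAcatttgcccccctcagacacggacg
The matches begin at position -47 relative to the annotated start in *Psmb5*, -9 in *Psmb6*, -227 in *Psmc6* and -247 in *Psmd12*. Among these 4 genes the log2 fold changes ran from 0.23 (*Psmb5*) to 0.87 (*Psmc6*), and *Psmd9*, the fifth gene with the letters, did not pass. The CCAAT box (CCAAT, either strand), a common promoter element, was in 34.5% of the 20S and 19S promoters and 24.8% of the members'. The share was 37.9% for genes called higher in the table, 36.8% for genes called lower and 37.4% for all promoters. A match is a run of letters and not a shown binding site.

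The proteasome activators were split. *Psme1* and *Psme2* encode the alpha and beta subunits of PA28, the interferon-inducible cap, and lie near each other on chromosome 14 (*Psme1* at chr14:55578123-55581529, + strand, and *Psme2* at chr14:55587441-55591113, - strand). *Psme1* gave 953, 933, 954 and 953 in EV against 688, 634, 670.1 and 643 in KO, 1.44-fold lower (log2 fold change -0.53 ± 0.04 (SE), adjusted p = 4.5e-13). *Psme2* gave 1149, 1213, 1221 and 1216 in EV against 787, 785, 791 and 796 in KO, 1.52-fold lower (log2 fold change -0.60 ± 0.04 (SE), adjusted p = 9.4e-16). Every KO library was below every EV library for both, and they were the only proteasome genes called lower, under both scalings. *Psme3*, the nuclear homologue PA28 gamma, was higher (3054 ± 91.0 in EV and 3728 ± 102 in *Hdac3* KO MCECs, log2 fold change 0.29 ± 0.03 (SE), adjusted p = 8.8e-11). *Psme4*, the PA200 activator, was higher too (2448 ± 120.2 in EV and 2916 ± 96.6 in *Hdac3* KO MCECs, log2 fold change 0.25 ± 0.03 (SE), adjusted p = 1.9e-08). The transcript of *Psme2* shares 28.3% of its 50-base stretches with *Psme2b* and a pseudogene.

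The core letters of the interferon-stimulated response element (GAAANNGAA, either strand) were in 17.2% of the 20S and 19S promoters, 10.6% of the members', 6.89% and 7.53% of those of genes called higher and lower in the table, and 8.56% of all promoters. Of the 13 members with these letters 6 were called higher and 6 lower, beside 66.7% and 29.9% of all members. *Psme1* holds the letters on the other strand, beginning at position 10. The lower genes *Psme2*, *Uba7* and *Ube2l6* were not among the members with the letters, and not every member had a promoter entry. The same letters were in 5 core and regulatory genes (*Psmb3*, *Psmb4*, *Psmc2*, *Psmd4* and *Psmd9*). The window of *Psme1* is shown as that of the lower proteasome gene with the letters.
*Psme1*, chr14:55578479-55578518, + strand: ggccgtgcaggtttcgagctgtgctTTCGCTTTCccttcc
The capitals mark the reverse complement of the letters searched.

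Of the assembly chaperones of the core, *Psmg1* was higher (535 ± 15.5 in EV and 687 ± 43.0 in *Hdac3* KO MCECs, log2 fold change 0.36 ± 0.05 (SE), adjusted p = 1.2e-07). *Psmg3* did not pass, and its libraries overlapped (159 ± 15.0 in EV and 193 ± 32.0 in *Hdac3* KO MCECs, log2 fold change 0.27 ± 0.10 (SE), adjusted p = 0.015).

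E1 enzymes were higher for 4 of 5 genes, and the exception was the E1 of ISG15. *Uba1*, the main ubiquitin E1, gave 7018, 6974, 7161 and 7070.5 in EV against 8310.3, 8052, 8042 and 8179 in KO (log2 fold change 0.21 ± 0.03 (SE), adjusted p = 3.1e-09). *Uba3*, the catalytic subunit of the NEDD8 E1, whose product is joined to cullins, gave 2405, 2224, 2205 and 2192 in EV against 3326, 3447, 3471 and 3401 in KO, 1.51-fold higher (log2 fold change 0.60 ± 0.03 (SE), adjusted p = 1.6e-18). *Uba7*, which activates the interferon-induced modifier ISG15, gave 129.9, 145, 137 and 145 in EV against 68.1, 60.1, 48.7 and 45.7 in KO, 2.50-fold lower in KO MCECs (log2 fold change -1.33 ± 0.13 (SE), adjusted p = 1.8e-11). The groups did not overlap for any of the 3. The other subunit of the NEDD8 E1, *Nae1*, which is outside the name rule, did not pass (log2 fold change 0.11 ± 0.05 (SE), adjusted p = 0.028; -0.0056 under library totals alone), and its libraries overlapped. *Uba2*, of the SUMO E1, was at 2706 ± 46.0 in EV and 3448 ± 75.7 in *Hdac3* KO MCECs (log2 fold change 0.35 ± 0.03 (SE), adjusted p = 3.5e-13). *Uba6*, another ubiquitin E1, was at 840.3 ± 43.2 in EV and 1048 ± 48.7 in *Hdac3* KO MCECs (log2 fold change 0.32 ± 0.04 (SE), adjusted p = 6.0e-08). Per length, *Uba1* was the most abundant (92.6 ± 1.22 FPKM in EV and 98.6 ± 1.52 in KO) and *Uba7* the least (2.06 ± 0.0978 FPKM in EV and 0.758 ± 0.142 in KO). The summed level of the 5 genes was 205 to 212 FPKM in EV and 241 to 245 FPKM in KO libraries.

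**Figure D3:**
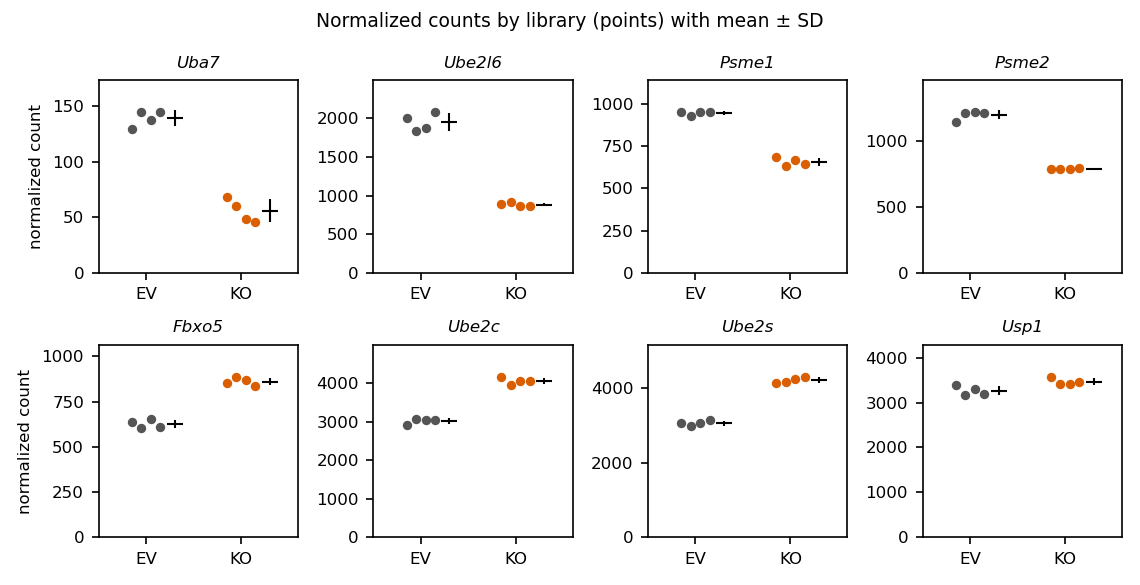
Normalized counts (y axis, from 0) of 8 members in the 4 EV (grey) and 4 KO (orange) libraries (x axis), with the mean ± SD beside the points. *Uba7*, *Ube2l6*, *Psme1* and *Psme2* are lower and *Fbxo5*, *Ube2c* and *Ube2s* higher in every KO library, and *Usp1* is higher by 0.09 on the log2 scale, which turns to -0.03 under scaling by library totals alone.

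Among the E2 enzymes 21 of 26 were higher, and the libraries did not overlap for 24. The summed E2 level was 1125 ± 9.77 FPKM in EV and 1214 ± 15.4 in KO MCECs, 7.86% higher. *Ube2l6*, the E2 that carries ISG15 from Uba7 and lies at chr2:84798828-84810335, + strand, gave 2006, 1834, 1875 and 2081 in EV against 891, 911, 862 and 867 in KO, 2.21-fold lower (log2 fold change -1.14 ± 0.04 (SE), adjusted p = 2.2e-23). Both enzymes of the ISG15 pathway among the members were therefore lower by more than any other E1 or E2 gene. The ISG15 precursor gene itself was at 844 ± 30.9 in EV and 654 ± 12.6 in *Hdac3* KO MCECs (log2 fold change -0.37 ± 0.05 (SE), adjusted p = 3.8e-09). Of 13 interferon-induced marker genes listed for comparison, which include *Psmb8*, *Psmb9*, *Psmb10*, *Usp18* and *Isg15*, 13 were called lower, with a median of -0.93; their part in the lower *Uba7*, *Ube2l6*, *Psme1* and *Psme2* was not tested.

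The E2 pair of the anaphase-promoting complex was higher. *Ube2c*, which starts ubiquitin chains on its substrates, gave 2924, 3079, 3032 and 3032 in EV against 4161, 3947, 4059 and 4044 in KO (log2 fold change 0.42 ± 0.03 (SE), adjusted p = 1.3e-15). *Ube2s*, which extends them, gave 3057, 2963, 3048 and 3129.6 in EV against 4133, 4161, 4243 and 4288 in KO (log2 fold change 0.46 ± 0.03 (SE), adjusted p = 8.7e-17). The KO libraries were above the EV libraries for both. *Ube2s* was among the most abundant members per length (190.0 ± 4.33 FPKM in EV and 242 ± 3.71 in KO). Of 10 proliferation markers listed, 9 were in the table and 9 were higher, with a median of 0.50 (*Top2a* 0.86, *Ccnb1* 0.67, *Cdk1* 0.55), and their part in these E2 changes was not tested. The paper reports slower growth of *Hdac3* KO than of EV MCECs.

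The letters of the cell cycle homology region (TTTGAA, either strand) are found near the start of many genes of G2 and M phase. They were in 8.51% of the members' promoters and 17.9% of all promoters. The share was 12.5% for genes called higher in the table and 11% for genes called lower. The letters are shown for *Ube2c* and the F-box gene *Fbxo5*, which hold them, reverse complemented in capitals, beginning at positions -29 and 3.
*Ube2c*, chr2:164769875-164769930, + strand: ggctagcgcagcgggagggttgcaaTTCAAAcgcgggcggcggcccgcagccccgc
*Fbxo5*, chr10:5805441-5805487, - strand: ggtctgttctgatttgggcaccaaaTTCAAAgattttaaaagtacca
Both genes were higher in KO MCECs. Of the 12 members with these letters 8 were called higher and 4 lower, near the 66.7% and 29.9% of all members. The lower ones were *Uba7* (-1.33), *Fbxw5* (-0.33), *Fbxo9* (-0.29) and *Fbxl19* (-0.21).

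Of the other E2 genes the highest by the naming rule was *Ube2j2*, an enzyme of endoplasmic reticulum-associated degradation, at 1353 ± 64.9 in EV and 2000.4 ± 67.3 in *Hdac3* KO MCECs (log2 fold change 0.56 ± 0.04 (SE), adjusted p = 7.3e-16). *Ube2d2a*, a broadly used ubiquitin E2, was at 2812 ± 59.9 in EV and 3796 ± 44.7 in *Hdac3* KO MCECs (log2 fold change 0.43 ± 0.03 (SE), adjusted p = 5.8e-16). *Ube2v2*, the inactive partner of *Ube2n* in building lysine-63 chains, was at 489 ± 23.9 in EV and 652 ± 44.6 in *Hdac3* KO MCECs (log2 fold change 0.42 ± 0.06 (SE), adjusted p = 2.2e-08). All of these had non-overlapping libraries. *Ube2n* was higher as well (0.33 ± 0.03, adjusted p = 2.9e-11). Besides *Ube2l6* the lower E2 genes were *Ube2e2* (493 ± 30.4 in EV and 306 ± 22.4 in *Hdac3* KO MCECs, log2 fold change -0.69 ± 0.06 (SE), adjusted p = 9.2e-12), *Ube2e3* (-0.31 ± 0.04) and *Ube2q1* (-0.21 ± 0.03). *Ube2e1* was called higher (0.28 ± 0.08, adjusted p = 0.0016), a call that was lost under library totals alone (0.16) and at an adjusted p under 0.001. *Ube2r2*, a partner of the Skp1-cullin-F-box ligases, was called higher by a small change (0.12 ± 0.03), and that call was lost under library totals alone (0.01).

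**Figure D4:**
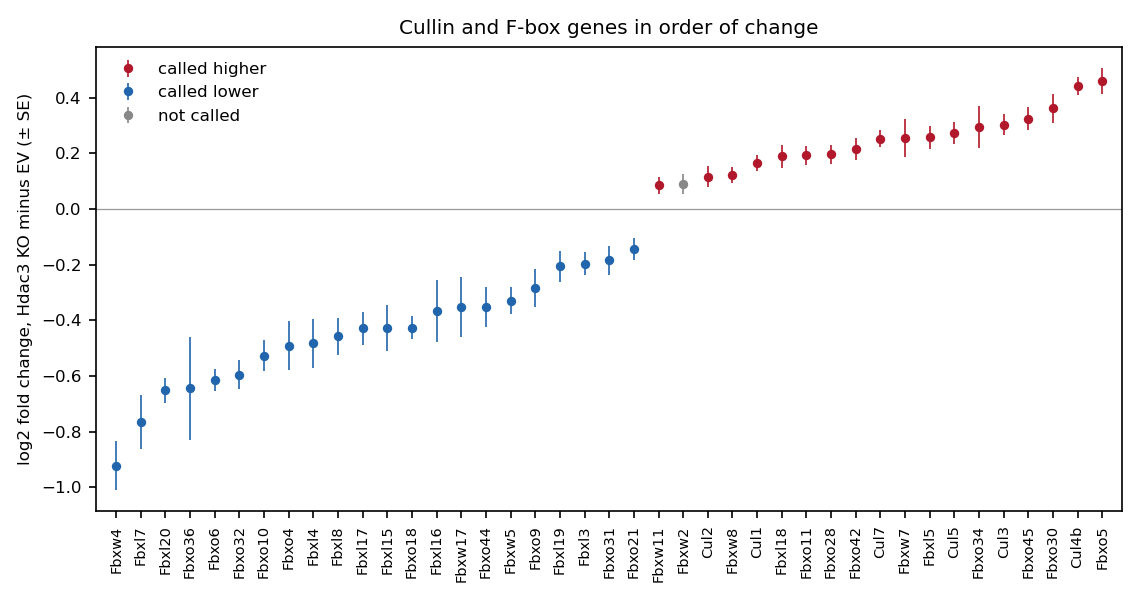
Log2 fold change (KO minus EV, y axis, ± SE) of 41 of the 42 cullin and F-box genes in order of change (x axis), coloured by the call at an adjusted p under 0.01; *Fbxw18* lies outside. All 6 cullins lie above 0, F-box genes make up the lower 22 points, and *Cul2*, *Fbxw11* and *Fbxw2* turn to negative changes under scaling by library totals alone.

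All 6 cullins in the table were higher. *Cul4b*, the scaffold of the DDB1 ligases, gave 4207, 4123, 4117 and 3825 in EV against 5238, 5530.1, 5779.9 and 5536 in KO (log2 fold change 0.44 ± 0.03 (SE), adjusted p = 5.4e-15). *Cul3*, which takes BTB receptors, gave 2472, 2258, 2153 and 2113 in EV against 2642, 2861, 2799 and 2766 in KO (log2 fold change 0.30 ± 0.04 (SE), adjusted p = 4.2e-09). *Cul1*, which takes Skp1 and the F-box proteins, gave 2475, 2456, 2422 and 2371 in EV against 2732, 2686, 2740.4 and 2729 in KO (log2 fold change 0.16 ± 0.03 (SE), adjusted p = 4.8e-06). No KO library was below an EV library for these 3 genes. *Cul5* (0.27 ± 0.04) and *Cul7* (0.25 ± 0.03), which pairs with *Fbxw8*, also had non-overlapping libraries, with adjusted p = 7.7e-08 and 1.5e-09. *Cul2*, the scaffold used by VHL, had overlapping libraries and a small change (log2 fold change 0.12 ± 0.04 (SE), adjusted p = 0.0053). Its call was lost without EV replicate 2, 3 or 4 or KO replicate 3 or 4 (adjusted p = 0.014 to 0.022). Under library totals alone 4 of the 6 were called higher, *Cul1* lost its call (0.05), and *Cul2* was at -0.0018.

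Of the 36 F-box genes 23 were called lower. The Fbxl genes, with leucine-rich repeats, were lower in 9 of 11 (81.8%) and higher in 2. The Fbxo genes, with other domains, were lower in 10 (58.8%) and higher in 7 of 17, and the Fbxw genes, with WD40 repeats, lower in 4 (50%) and higher in 3 of 8. The table had 49.6% lower in all and 60.5% lower under 10 FPKM, near the shares of the Fbxo and Fbxw genes. The summed level of the F-box genes fell from 431 ± 1.92 FPKM in EV to 370 ± 2.74 in KO libraries, a sum that decreased by 14.2%. That of the cullins was 194 ± 6.17 and 220 ± 3.97 FPKM, 13.1% higher. F-box genes called lower had a median EV level of 7.52 FPKM, and those called higher of 12.8 FPKM, in the same order as the medians of 9.37 and 17.8 FPKM in the table.

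The lowest by the naming rule was *Fbxw4*, the mouse dactylin gene, which gave 250.4, 273, 262 and 281 in EV against 146, 157, 125 and 137 in KO, 1.89-fold lower (log2 fold change -0.92 ± 0.09 (SE), adjusted p = 1.0e-11). *Fbxl20* gave 1143, 1125, 1172 and 1225 in EV against 771, 800.4, 703 and 701 in KO (log2 fold change -0.65 ± 0.05 (SE), adjusted p = 4.8e-15). *Fbxl7* gave 181, 223, 226 and 201 in EV against 120.4, 122, 114 and 133 in KO (log2 fold change -0.77 ± 0.10 (SE), adjusted p = 7.5e-09). The EV and KO libraries were apart for all 3. *Fbxo6*, a receptor for misfolded glycoproteins and the F-box gene with the highest EV level among those named here (45.9 ± 2.20 FPKM in EV and 27.5 ± 1.24 in KO), gave 1764, 1603, 1671 and 1612 in EV against 1038, 1051, 1147 and 1096 in KO, 1.54-fold lower (log2 fold change -0.62 ± 0.04 (SE), adjusted p = 4.5e-16). *Fbxo32*, or atrogin-1, known for muscle atrophy, gave 900.1, 899.8, 888 and 855 in EV against 599, 629, 596 and 518 in KO, 1.51-fold lower (log2 fold change -0.60 ± 0.05 (SE), adjusted p = 8.8e-13). Both were lower in every KO library.

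Among the F-box members the highest fold change was that of *Fbxo5* (Emi1), an inhibitor of the anaphase-promoting complex. This gene gave 636, 604, 653 and 611 in EV against 850.4, 886, 869 and 836 in KO (log2 fold change 0.46 ± 0.05 (SE), adjusted p = 3.6e-11). *Fbxo30* (507 ± 16.9 in EV and 651 ± 29.1 in *Hdac3* KO MCECs, log2 fold change 0.36 ± 0.05 (SE), adjusted p = 1.1e-07) and *Fbxo45* (908 ± 38.0 in EV and 1135 ± 44.9 in *Hdac3* KO MCECs, log2 fold change 0.32 ± 0.04 (SE), adjusted p = 1.4e-08) followed. *Fbxl5*, the iron-sensing receptor of the IRP proteins, was higher (1116 ± 72.8 in EV and 1332 ± 34.8 in *Hdac3* KO MCECs, log2 fold change 0.26 ± 0.04 (SE), adjusted p = 8.4e-07). *Fbxw7*, the receptor for cyclin E, Myc and Notch, was higher (293 ± 16.1 in EV and 349.7 ± 16.6 in *Hdac3* KO MCECs, log2 fold change 0.26 ± 0.07 (SE), adjusted p = 7.4e-04), a call that was lost under library totals alone (0.14). The libraries of these 5 genes did not overlap, and the other 7 higher calls among F-box genes lay between 0.08 and 0.29.

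*Fbxw18* had few reads: the EV libraries held 9, 3, 8 and 9, the KO libraries 1, 0, 0 and 0, and no fold is given at this depth.

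**Figure D5:**
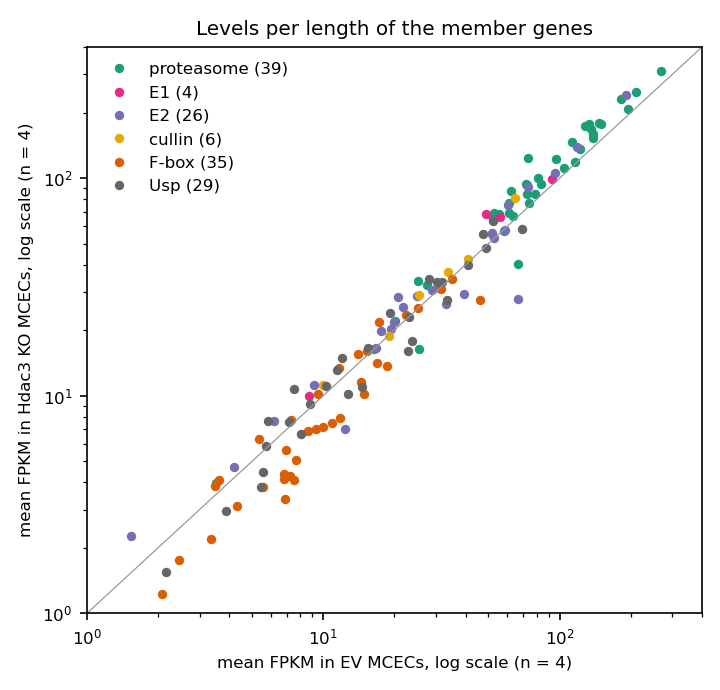
Mean FPKM in *Hdac3* KO (y axis) against EV MCECs (x axis), both on log scales, for the 139 members above 1 FPKM in both groups, coloured by group; the line marks equal levels, and FPKM carries library totals without a TMM factor. Proteasome genes fill the upper end and lie mostly above the line, and F-box genes fill the lower part and lie mostly below it.

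The Usp deubiquitinases showed no common direction: 18 were higher and 13 lower of 32, with a median of 0.14, and their summed level was 610 ± 6.62 FPKM in EV and 613 ± 6.39 in KO libraries. *Usp14*, which trims chains at the proteasome, gave 2366, 2396, 2170.3 and 2267 in EV against 2847, 3085, 3087 and 3138 in KO (log2 fold change 0.40 ± 0.03 (SE), adjusted p = 6.5e-13). *Usp36*, a nucleolar enzyme, gave 765, 789, 804 and 823 in EV against 1257, 1207, 1262 and 1202 in KO, 1.55-fold higher (log2 fold change 0.63 ± 0.04 (SE), adjusted p = 5.1e-16). *Usp13* gave 179.6, 181, 158 and 149 in EV against 79.6, 89.2, 116 and 85.9 in KO, 1.80-fold lower (log2 fold change -0.84 ± 0.11 (SE), adjusted p = 4.6e-08). The groups were apart in all 3 genes, higher in KO for *Usp14* and *Usp36* and lower for *Usp13*. After *Usp36*, the highest genes by the naming rule were *Usp31* (0.52 ± 0.04), *Usp10* (0.44 ± 0.04), *Usp34* (0.43 ± 0.04) and *Usp15* (0.41 ± 0.04), with adjusted p of 4.8e-13 for *Usp10* and 3.5e-12 for *Usp15*. After *Usp13*, the lowest were *Usp20* (-0.40 ± 0.06), *Usp25* (-0.39 ± 0.03), *Usp49* (-0.36 ± 0.07) and *Usp21* (-0.31 ± 0.05), with adjusted p from 7.8e-13 to 2.6e-05.

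*Usp7*, which acts on Mdm2 and p53, was higher (2692 ± 90.7 in EV and 3199 ± 76.7 in *Hdac3* KO MCECs, log2 fold change 0.25 ± 0.03 (SE), adjusted p = 3.6e-09). *Usp9x*, an X-linked enzyme, was higher (3448 ± 153 in EV and 3994 ± 158 in *Hdac3* KO MCECs, log2 fold change 0.21 ± 0.03 (SE), adjusted p = 2.6e-07). *Usp1*, which acts on Fancd2 and PCNA, was called higher by a small change (3259 ± 101 in EV and 3457 ± 78.1 in *Hdac3* KO MCECs, log2 fold change 0.09 ± 0.03 (SE), adjusted p = 0.0065) that turned to -0.03 under library totals alone. That call was lost without EV replicate 2 or 4 or KO replicate 1 (adjusted p = 0.024 to 0.028). The transcript of another gene shares 21.4% of the 50-base stretches of *Usp1*. Overlapping genes limit *Usp49*, of whose exonic bases 52.3% also belong to the readthrough gene *Gm20517* or to *Tomm6*. *Usp17la*, from a multicopy family whose transcripts share 19.3% of its 50-base stretches, had 5, 2, 5 and 2 reads in EV and 26, 23, 26 and 29 in KO, so every KO library was above every EV library at a low depth.

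Other genes of the pathway were taken from 5 lists compiled by function, with earlier results of these data already known. Those given here with values were picked after the values were seen. Of the ubiquitin and ubiquitin-like precursors 9 of 12 listed were in the table, 8 higher (5 under library totals alone) and 1 lower (*Isg15*). They include the ubiquitin genes *Ubb* (0.15 ± 0.03) and *Rps27a* (0.35 ± 0.03), and *Nedd8* (0.29 ± 0.04), of which *Ubb* lost its call under library totals alone (0.03). Of 17 proteasome companions in the table (23 listed), 13 were higher (76.5%), 2 lower (11.8%) and 2 did not pass, with a median of 0.31. The shuttle receptor *Rad23b* was at 8781 ± 153 in EV and 14018 ± 293 in *Hdac3* KO MCECs (log2 fold change 0.67 ± 0.03 (SE), adjusted p = 8.7e-23). The segregase *Vcp* (0.42 ± 0.02) and its cofactor *Nploc4* (0.66 ± 0.03) were higher, as were the 19S receptor *Adrm1* (0.31 ± 0.03) and its partner *Uchl5* (0.49 ± 0.05). Of the transcription factors, *Nfe2l1* changed by 0.16 ± 0.03 and *Nfe2l2* by 0.69 ± 0.03 on the log2 scale, and *Nfe2l1* lost its call under library totals alone (0.04). *Ubqln2* (-0.20 ± 0.03) and *Ngly1* (-0.32 ± 0.07) were lower.

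Of 20 companions of the cullin-RING ligases in the table (32 listed), 16 were higher (80%) and 3 lower (15%), against 47.1% and 49.6% of the table. The remaining one, *Nae1*, did not pass. The 8 COP9 signalosome genes present (*Cops2* to *Cops6*, *Cops7b*, *Cops8* and *Gps1*), which remove NEDD8 from cullins, were all called higher, from 0.11 to 0.55. Under library totals alone 6 of them were, and *Cops7b* (0.13) and *Cops6* (-0.0081) were not. The F-box gene *Skp2*, a name outside the member rule, was higher (731 ± 46.2 in EV and 1159 ± 31.4 in *Hdac3* KO MCECs, log2 fold change 0.66 ± 0.04 (SE), adjusted p = 1.3e-15). Likewise outside the rule, *Ccnf* (cyclin F), another F-box gene, was higher (log2 fold change 0.47 ± 0.04 (SE), adjusted p = 1.1e-13). *Cand2* (-0.72 ± 0.05) was lower and *Cand1* (0.28 ± 0.03) higher, and both are exchange factors of cullins. The subunits and activators of the anaphase-promoting complex were mixed, with 5 higher (45.5%) and 3 lower (27.3%) of 11 in the table (16 listed). The share called higher was near the 47.1% of the whole table. *Cdc23* was at 0.30 ± 0.04 and *Anapc2*, the cullin-like subunit of the complex, at -0.34 ± 0.03. Under library totals alone 1 of the 11 was called higher and 3 lower. Of 16 deubiquitinases of other families (32 listed), 11 were higher (68.8%) and 4 lower (25%), and under library totals alone 7 and 4. *Tnfaip3* (A20) was at 138 ± 14.3 in EV and 256 ± 10.8 in *Hdac3* KO MCECs (log2 fold change 0.89 ± 0.09 (SE), adjusted p = 3.5e-11). *Cyld*, which like A20 limits NF-kB signalling, was at 1829 ± 34.1 in EV and 1483 ± 33.4 in *Hdac3* KO MCECs (log2 fold change -0.30 ± 0.03 (SE), adjusted p = 5.0e-10), in the opposite direction.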

How the data were processed

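Bulk RNA-seq of 4 EV and 4 *Hdac3* KO MCEC libraries was analysed. The authors aligned reads to mm10 (tophat2 and bowtie2 per the study's methods; the submitters' processing notes name CASAVA and DESeq 1.6.3) and deposited read counts per gene and FPKM values (reads scaled to gene length and library total) in a single table. The study's methods name the cufflinks suite and DESeq2 for differential expression and the lumi package for the count matrix. Which tool counted the deposited reads is not clear from the sources used here, and its strand setting is not given. The deposited adjusted p-value and log2 fold change columns and the deposited group means (normalized signal, the authors' size-factor scaled means) hold the authors' own comparison and were not used, except to find that every adjusted p was under 0.05, at most 0.049988. Of the 8278 genes, 7976 are protein coding.

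Library totals were recovered from count, gene length and FPKM. Counts were tested with edgeR 4.0.16 (R 4.3.3; TMM factors on the recovered totals, glmQLFit and glmQLFTest, all 8278 genes, both groups, no covariate, Benjamini-Hochberg adjustment, call at adjusted p under 0.01), with the code tested on simulated data. TMM factors were estimated on genes the authors had selected as changed. The SE is the log2 fold change over the square root of F. A normalized count is a count over the relative effective library size. DESeq2 1.42.0 served as an alternative. The number of reads limits precision for low genes, and intervals between libraries cover only the spread of these samples. No replicate pair agreed within sampling noise, so none was merged.

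In each of the proteasome, E2, cullin and F-box and Usp groups, the 5 highest and 5 lowest fold changes were named among called genes with non-overlapping libraries and 100 or more normalized counts on average in either group, plus all E1 genes and a fixed list of known regulators, 65 genes in all. *Fbxw18*, *Usp17la*, *Fbxo9*, *Fbxw5*, *Fbxl19*, the Psmd and F-box genes just outside the threshold and the companion genes with values were picked after their values were seen. Members and lists were chosen with earlier results of these data known. Alternatives were DESeq2, its size factors in edgeR, totals without TMM, a replicate block, a mean of at least 10 counts, protein-coding rows only, adjusted p under 0.05 or 0.001, and leaving out each library. Exon overlap and shared 50-base stretches were taken from GENCODE M21, and promoters from RefSeq (GRCm38.p6), printed with up to 25 bases on each side of a match, fewer where the promoter's upstream edge or 25 bases past the start came first.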

Additional observations from a re-analysis of the deposited data

Results flagged for a closer look

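In 130 groups of 4 libraries (the EV and the KO values of each of the 65 named genes), 6 held a library whose gap to the nearest of the others exceeded Dixon's 95% critical value, where chance gives about 1 in 20 groups, or 6.5. All values are normalized counts. *Psme2* was at 1149 in EV replicate 1 and at 1213 to 1221 in the other EV libraries. *Psme1* was at 933 in EV replicate 2 and at 953 to 954 in the others. *Uba3* was at 2405 in EV replicate 1 and at 2192 to 2224 in the others. *Ube2v2* was at 453 in EV replicate 4 and at 499 to 502 in the others. *Cul2* was at 1447 in EV replicate 1 and at 1319.7 to 1329.9 in the others, and this library lies above the lowest KO library. *Usp15* was at 2035 in KO replicate 1 and at 2307 to 2340.2 in the other KO libraries. For *Psme2*, *Psme1*, *Uba3*, *Ube2v2* and *Usp15* the EV and KO libraries did not overlap with the distant library included.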

How the results depend on the processing

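Of the alternatives, library totals without TMM factors cost the most members their call (29), followed by an adjusted p under 0.001 (17). With library totals and no TMM factors the median over all genes moved by -0.12 to -0.062, below 0, and the median log2 fold changes were 0.23 for the proteasome, 0.21 for E1, 0.14 for E2, -0.31 for cullin and F-box and 0.019 for Usp genes; 29 members lost their call and 9 changed sign, among the named genes *Psmd13* (-0.031), *Cul2* (-0.0018) and *Usp1* (-0.032). Calls of higher then numbered 8 for cullin and F-box genes, 4 for F-box genes, 5 for the precursors, 1 for the anaphase-promoting complex and 7 for other deubiquitinases. At an adjusted p under 0.05 the anaphase-promoting complex had 8 higher calls. The median over the table was 0.067 with DESeq2, 0.068 with its size factors in edgeR and 0.063 over protein-coding rows. Leaving out each library in turn, the proteasome median lay between 0.33 (without EV replicate 2) and 0.36, and 1 to 9 members lost their call. Replicate numbers did not pair the samples (correlations of same-numbered deviations -0.11, 0.12, -0.02 and -0.07); with a replicate block the proteasome count was 34 higher, and *Psmd13* (0.09) and *Fbxw11* lost their calls. Of 1040 values of the 65 named genes under all alternatives, 1013 kept direction and side of the threshold, 24 lost the call and 3 reversed; of 532 counts and medians, 516 stayed within their limits. Genes under about 10 reads, such as *Fbxw18*, are limited by depth.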
